A study of Arabidopsis thaliana with 14 samples.

Results

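The 7 genes described here act in the synthesis of camalexin, and were followed across the mRNA sequencing libraries of the study, namely the enzyme genes CYP79B2 (AT4G39950), CYP79B3 (AT2G22330), CYP71A12 (AT2G30750), CYP71A13 (AT2G30770), GGP1 (AT4G30530) and PAD3 (AT3G26830) and the regulator gene NAC042 (AT2G43000). They were chosen by locus for their place in the pathway and make up 7 of the 33602 genes listed in the counts. All 7 were listed and passed the filter on low counts in both experiments. The study asked how loss of the histone demethylase IBM1 alters plant defence and the microbes around the root, and it compared ibm1-1 with Col-0 in non-sterile soil and in sterile medium. The first group was ibm1-1 and the second Col-0 in soil, with 3 biological replicates each, as whole seedlings kept 5 days on plates of half-strength Murashige and Skoog medium and then 10 days in soil, which the labels give as an age of 2 weeks. The next groups were ibm1-1 and Col-0 seedlings of 7 days from the same medium without soil, with 2 biological replicates each. The mutant ibm1-1 carries a point mutation in the Col-0 background, so transcripts of IBM1 can persist in it, and it is a single allele. The soil replicates each pooled seedlings, and shoot and root were not separated.

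Camalexin, the best known phytoalexin of Arabidopsis, is an antimicrobial indole compound made from tryptophan when the plant meets a pathogen. Tryptophan is first turned into indole-3-acetaldoxime, an intermediate that also feeds the indole glucosinolates and part of the auxin supply. The later steps lead through indole-3-acetonitrile, joined to glutathione, towards camalexin, and are known to be switched on together under attack by factors such as WRKY33. CYP79B2 and CYP79B3 are the early P450 enzymes that make the aldoxime. CYP71A12 and CYP71A13 make indole-3-acetonitrile, GGP1 trims the glutathione conjugate, and PAD3 (CYP71B15) closes the ring in the last steps. NAC042, also named JUB1, is a NAC transcription factor described as a regulator of camalexin genes.

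The 2 pairs of paralogs are shown here by the sequence before their starts, because the members of each pair had different fold changes between the genotypes. Sequences and positions are those of RefSeq on TAIR10.1, read 5′ to 3′ on the strand of the gene. CYP79B2 lies on chromosome 4 from 18525042 to 18527602 and CYP79B3 on chromosome 2 from 9488413 to 9491404, both on the plus strand. The 250 bases before each start, chr4:18524792-18525041 and chr2:9488163-9488412, share a run of 22 bases, given in capitals, which begins 77 bases before the start of CYP79B2 and 151 bases before that of CYP79B3. Of all 250-base windows searched, 0.00729% hold that run. This share counts the windows of the pair itself, from which the run was chosen, so it is no independent background.
CYP79B2: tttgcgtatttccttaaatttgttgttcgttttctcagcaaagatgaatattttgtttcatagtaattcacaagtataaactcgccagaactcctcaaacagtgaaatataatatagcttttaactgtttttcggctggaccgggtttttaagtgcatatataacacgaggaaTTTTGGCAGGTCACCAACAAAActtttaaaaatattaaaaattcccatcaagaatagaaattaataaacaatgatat
CYP79B3: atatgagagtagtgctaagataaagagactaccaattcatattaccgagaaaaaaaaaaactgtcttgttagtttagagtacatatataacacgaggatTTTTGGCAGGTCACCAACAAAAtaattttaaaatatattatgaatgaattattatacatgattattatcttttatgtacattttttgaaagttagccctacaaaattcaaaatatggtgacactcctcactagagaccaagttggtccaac

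CYP71A12 lies on chromosome 2 from 13099486 to 13101371 and CYP71A13 on the same chromosome from 13109909 to 13111988, both on the minus strand and both annotated without a UTR. The bases from 250 to 61 before each start, chr2:13101432-13101621 and chr2:13112049-13112238, are given with the core of the W-box in capitals, since WRKY factors are known to bind it. The core was searched as TTGAC on both strands, so that it reads GTCAA where it lies on the other strand.
CYP71A12: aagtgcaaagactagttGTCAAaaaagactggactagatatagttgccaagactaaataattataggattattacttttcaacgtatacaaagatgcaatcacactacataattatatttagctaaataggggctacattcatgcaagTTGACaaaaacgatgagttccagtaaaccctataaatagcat
CYP71A13: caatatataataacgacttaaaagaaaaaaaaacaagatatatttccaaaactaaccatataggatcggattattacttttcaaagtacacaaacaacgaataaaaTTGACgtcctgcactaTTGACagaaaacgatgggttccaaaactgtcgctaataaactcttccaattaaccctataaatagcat

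Of the remaining genes, GGP1 spans 14920376 to 14922519 of chromosome 4 and PAD3 9887917 to 9889791 of chromosome 3, both on the plus strand, and NAC042 spans 17880457 to 17882636 of chromosome 2 on the minus strand. In the full 250 bases before the start, the W-box core was found 2 times each for CYP71A12, CYP71A13 and NAC042, 3 times for GGP1, and not for CYP79B2, CYP79B3 or PAD3. It was present in 44.9% of the windows of 27443 genes, and at least 2 times in 14.1%, so a match is only a description of the letters. The longer W-box, searched as TTGACC or TTGACT on both strands, was found 2 times for NAC042 and 1 time for GGP1, and occurred in 28.4% of all windows. The coding sequences of CYP71A12 and CYP71A13 have 1494 bases each and are 90.4% identical, with a longest shared run of 59 bases. Those of CYP79B2 and CYP79B3 are 81.1% identical, with a longest shared run of 32 bases. Of the 25-base stretches of the CYP71A12 transcript, 14% also occur in CYP71A13, and none of its 100-base stretches do, so reads of the CYP71A pair could be shared in part and each value of the pair is less certain than their sum.

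The soil libraries held 23309938 to 24651600 counts in ibm1-1 and 19957585 to 27001069 in Col-0, and the medium libraries 18260809 to 19108010 in ibm1-1 and 19924658 to 21411230 in Col-0. Transcripts of IBM1 were lower in ibm1-1, with 19.2 ± 0.633 CPM in ibm1-1 and 25.8 ± 0.750 CPM in Col-0 in soil (SD, n = 3 each), a log2 fold change of -0.42 (adjusted p = 1.18e-06, edgeR). CPM are counts scaled to library size with the TMM factors. The labels call the samples whole plants or seedlings, and both leaf and root markers were present in every library. The 4 seed storage and oil body markers differed between the genotypes in soil, where they summed to 57.9 to 64.4 CPM in ibm1-1 and 0.0387 to 0.169 CPM in Col-0. All 4 were higher in ibm1-1 there, and 2 of them had no count in Col-0. In medium they summed to 0.831 to 1.69 CPM in ibm1-1 and 1.05 to 1.26 CPM in Col-0. The 5 root markers summed to 751.8 to 803.0 CPM in ibm1-1 and 656.2 to 675.0 CPM in Col-0 in soil. Of these markers, 3 were higher there at an adjusted p below 0.05, as were 25.4% of all genes tested in soil. In medium the root markers summed to 3394 to 3947 CPM in ibm1-1 and 3034 to 3278 CPM in Col-0, with log2 fold changes from -0.32 to 0.26. The 5 leaf markers summed to 24460 to 31380 CPM in ibm1-1 and 28280 to 30480 CPM in Col-0 in soil, and to 17410 to 17820 CPM in ibm1-1 and 20620 to 22880 CPM in Col-0 in medium. These sums are mostly RBCS transcripts, and in medium the log2 fold changes of the single leaf markers ran from -0.60 to 2.14, the last that of the higher DEG LHCB1.1, with a median of 0.32.

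In soil the later P450 genes of the pathway and NAC042 were raised in ibm1-1, and the early genes and GGP1 were not. Genes were called DEGs when they changed more than 2-fold and had an adjusted p under 0.05 by the quasi-likelihood test of edgeR. Standard errors are given as SE. By this rule 4 of the 7 genes were higher in ibm1-1, CYP71A12, CYP71A13, PAD3 and NAC042, and none was lower, where 5.87% of all genes tested were higher and 2.39% lower. The median log2 fold change of the 7 genes was 1.70, against 0.00 for all genes tested. In whole seedlings, more cells that express a gene and more RNA per cell cannot be told apart.

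**Figure D1:**
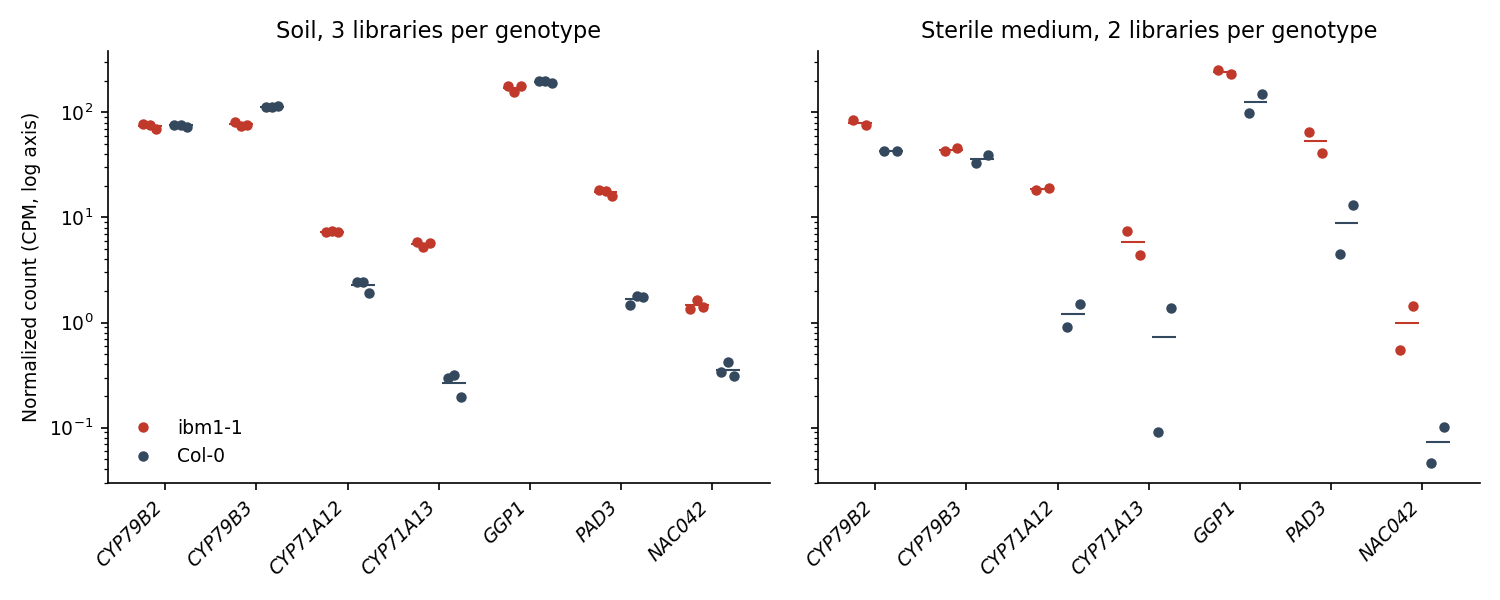
Normalized counts (CPM, log axis) of the 7 genes in each library of ibm1-1 (red, left) and Col-0 (dark, right), in soil with 3 libraries per genotype and in sterile medium with 2. Points are libraries and lines are means. CYP71A12, CYP71A13, PAD3 and NAC042 lay higher in every ibm1-1 library in both experiments, and in medium all 7 genes did. CYP79B2 overlapped between the genotypes in soil. A separation in either direction held for 57.1% of all genes tested in soil and 61.8% in medium.

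Of the early P450 genes, CYP79B2 had 69.6, 75.9 and 76.9 CPM in the ibm1-1 replicates and 72.6, 76.4 and 76.6 CPM in the Col-0 replicates. The genotypes overlapped, and the log2 fold change was -0.02 (SE 0.0469, adjusted p = 0.757, edgeR). Its paralog CYP79B3 had 75.4, 73.7 and 81.8 CPM in ibm1-1 and 115, 114 and 112 CPM in Col-0. Every ibm1-1 library lay below every Col-0 library, and the log2 fold change of -0.56 (SE 0.0448, adjusted p = 6.80e-12) was a reduction too small for a DEG. Such a separation in either direction was found in 57.1% of all genes tested in soil. With an adjusted p under 0.05 as the only criterion, 25.4% of all genes were higher and 25.9% lower in soil, so that small shifts were common. Among the 7 genes, 4 were higher and 2 were lower by that rule.

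Both genes for indole-3-acetonitrile formation rose. CYP71A12 had 7.21, 7.39 and 7.29 CPM in ibm1-1 and 1.90, 2.41 and 2.46 CPM in Col-0, a log2 fold change of 1.70 (SE 0.139, adjusted p = 1.02e-11). CYP71A13 had 5.65, 5.26 and 5.82 CPM in ibm1-1 and 0.194, 0.314 and 0.297 CPM in Col-0, a log2 fold change of 4.38 (SE 0.234, adjusted p = 5.37e-16). Neither gene overlapped between the genotypes. CYP71A13 was the lower of the pair in all 6 libraries, and it rested on 5, 6 and 7 raw counts in the Col-0 libraries. With both genes added into one, the log2 fold change was 2.36. The exon lengths of the pair are equal, so their counts were compared without scaling for length. CYP71A12 held 56.1%, 58.4% and 55.6% of the counts of the pair in ibm1-1 and 90.7%, 88.5% and 89.2% in Col-0. The exact 95% binomial intervals of these shares ran from 50.1% to 63.9% over the ibm1-1 libraries and from 76.6% to 96.9% over the Col-0 libraries, and they cover counting error only. Exons of the gene AT2G30766 on the other strand lie over 22.1% of the exon bases of CYP71A13, and the strand setting of the counting is not given in the sources used here. No such overlap was found for CYP71A12. AT2G30766 had 10, 16 and 9 counts in ibm1-1 and 1, 6 and 3 in Col-0 in soil. Its part in the values of CYP71A13 and in the shares of the pair was not tested.

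GGP1, the peptidase that acts on the glutathione conjugate, did not rise in soil. It had 179.9, 157.8 and 177.8 CPM in ibm1-1 and 189.0, 199.4 and 198.2 CPM in Col-0. All ibm1-1 libraries were below all Col-0 libraries, and the log2 fold change was -0.19 (SE 0.0458, adjusted p = 0.00108). Without scaling beyond library size, under which the median gene itself shifted by 0.12, the adjusted p of GGP1 was 0.235.

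PAD3, the gene of the last enzyme, had 16.0, 17.95 and 18.1 CPM in ibm1-1 and 1.74, 1.78 and 1.48 CPM in Col-0. The ibm1-1 libraries were all far above the Col-0 libraries, with a fold change of 10.4 (adjusted p = 1.94e-20, edgeR). NAC042, the regulator, had 1.39, 1.62 and 1.35 CPM in ibm1-1 and 0.310, 0.419 and 0.339 CPM in Col-0. Its log2 fold change was 2.04 (SE 0.307, adjusted p = 1.73e-06), from 34 to 41 raw counts in ibm1-1 libraries and 8 in each Col-0 library. NAC042 in both experiments and CYP71A13 in soil had fewer than 10 counts in every Col-0 library in these comparisons and passed the filter through ibm1-1, where they were higher. In medium CYP71A13 had 27 and 2 counts in the Col-0 libraries, so it too passed the filter through ibm1-1. The soil differences stood beside the seed markers given above, and the part of those markers in them was not tested.

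In sterile medium CYP71A12, CYP71A13, PAD3 and NAC042 were again higher in ibm1-1, and the early genes and GGP1 also had higher values. By the rule for DEGs these 4 of the 7 genes were higher and none was lower, where 5.53% of all genes tested were higher and 1.53% lower. At an adjusted p below 0.05 alone, 6 of the 7 were higher, where 11.5% of all genes were higher and 7.77% lower. The median log2 fold change of the 7 genes was 2.60, against -0.01 for all genes tested. The summed seed markers overlapped between the genotypes here, as given above.

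CYP79B2 had 75.8 and 83.9 CPM in ibm1-1 and 43.3 and 42.9 CPM in Col-0, a log2 fold change of 0.89 (SE 0.110, adjusted p = 0.000576). CYP79B3 had 45.5 and 42.5 CPM in ibm1-1 and 39.6 and 32.9 CPM in Col-0, a log2 fold change of 0.28 (SE 0.123, adjusted p = 0.141), which missed the threshold. Both ibm1-1 libraries lay above both Col-0 libraries for all 7 genes, a separation that in either direction held for 61.8% of all genes in medium. GGP1 had 234.1 and 250.7 CPM in ibm1-1 and 150.6 and 99.3 CPM in Col-0. Its log2 fold change of 0.96 (SE 0.177, adjusted p = 0.00527) lay just under the threshold for a DEG, and it was 1.28 when Col-0 replicate 1 was left out and 1.01 when ibm1-1 replicate 1 was.

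CYP71A12 had 19.0 and 18.2 CPM in ibm1-1 and 1.52 and 0.913 CPM in Col-0, a fold change of 15.4 (adjusted p = 7.64e-06, edgeR). Here it rose more than in soil, and its ibm1-1 replicates were close together. CYP71A13 had 4.37 and 7.37 CPM in ibm1-1 and 1.36 and 0.0913 CPM in Col-0, with 27 and 2 raw counts in the Col-0 libraries, and a log2 fold change of 3.05 (SE 0.605, adjusted p = 0.0075). The Col-0 replicates differed so much that the log2 fold change was 5.90 when Col-0 replicate 1 was left out and 2.09 when Col-0 replicate 2 was, and with DESeq2 the adjusted p was 0.183. AT2G30766, on the other strand, had 140 and 87 counts in ibm1-1 and 1133 and 1482 in Col-0 in medium. Its part in the values of CYP71A13 and in the shares of the pair was not tested. CYP71A12 held 81.3% and 71.2% of the counts of the pair in ibm1-1 and 52.6% and 90.9% in Col-0, so in medium the share overlapped between the genotypes. With the pair added into one gene the log2 fold change was 3.68.

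PAD3 had 40.9 and 65.5 CPM in ibm1-1 and 13.1 and 4.52 CPM in Col-0. Its log2 fold change was 2.60 (SE 0.380, adjusted p = 0.0015), and it was 3.55 when Col-0 replicate 1 was left out and 2.01 when Col-0 replicate 2 was. Col-0 replicate 1 was the higher control for all 7 genes in medium, though by little for CYP79B2 and on few counts for NAC042. NAC042 was counted 27 and 10 times in ibm1-1 and 2 and 1 times in Col-0, a ratio of normalized counts of 13.9 with an exact 95% counting interval from 4.40 to 70.4. Its adjusted p was 0.0107, and 0.0802 without Col-0 replicate 2. Exons of AT2G42990, on the other strand, lie over 7.78% of the exon bases of NAC042. AT2G42990 had 10 and 5 counts in ibm1-1 and 11 and 24 in Col-0 in medium, and its part in the values of NAC042 was not tested.

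**Figure D2:**
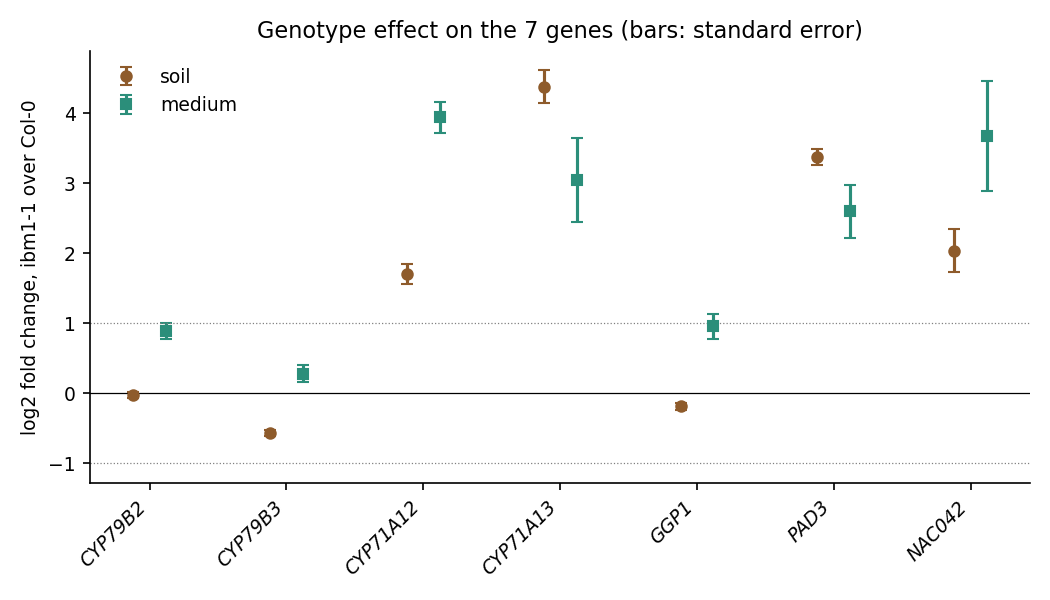
Log2 fold change of ibm1-1 over Col-0 for the 7 genes in soil (circles) and in medium (squares), with the standard error as bars. Dotted lines mark a fold change of 2 in either direction. The values of CYP79B2, CYP79B3 and GGP1 lie near or below 0 in soil and above 0 in medium, and CYP71A12 has 1.70 in soil and 3.95 in medium.

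The genotype effect itself was compared between the experiments with limma, as the log2 fold change in soil minus that in medium. Of the 7 genes, 4 had a more negative effect in soil and none a more positive one, where 9.64% of all genes tested were more negative and 7.64% more positive in soil. The difference was -0.91 for CYP79B2 (SE 0.120, adjusted p = 1.09e-05), -0.84 for CYP79B3 (SE 0.125, adjusted p = 5.60e-05) and -1.15 for GGP1 (SE 0.145, adjusted p = 7.54e-06). CYP71A12 differed by -2.26 (SE 0.390, adjusted p = 0.000273), so that it rose in both experiments but by less in soil. For PAD3 the difference was 0.60 (SE 0.423, adjusted p = 0.383), for CYP71A13 it was 0.45 (SE 0.830, adjusted p = 0.778), and for NAC042 it was -1.36 (SE 0.980, adjusted p = 0.395). These 3 did not pass the test, which does not show that their effects were alike. PAD3 and CYP71A13 turned on the Col-0 medium replicates. Without Col-0 medium replicate 2 their differences were 1.38 (adjusted p = 0.00195) and 2.28 (adjusted p = 0.00221), and without Col-0 medium replicate 1 they were -0.15 (adjusted p = 0.821) and -1.32 (adjusted p = 0.312). In these fits, as wherever a medium replicate was left out, 1 library stood for its group and was assumed to vary like the other groups. Soil and medium also differed in age and, by the paper's methods but not the submitters' notes, in read processing. Neither can be told apart from the growth condition.

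Late and early steps were set against each other within each library, as the mean log2 CPM of CYP71A12, CYP71A13 and PAD3 minus that of CYP79B2 and CYP79B3. In soil the value was -3.06, -3.07 and -3.11 in ibm1-1 and -6.67, -6.35 and -6.45 in Col-0. The means were -3.08 ± 0.0280 in ibm1-1 and -6.49 ± 0.167 in Col-0 (SD, n = 3 each), a shift of 3.41 towards these late genes. In medium the value was -1.96 and -1.53 in ibm1-1 and -3.77 and -5.58 in Col-0, a shift of 2.93. The genotypes did not overlap in either experiment, though the medium controls were far apart. GGP1 acts after the CYP71A enzymes and before PAD3, but it was left out of this value, and it did not rise in soil. Counting it as a late step lowered the shift to 2.58 in soil and 2.29 in medium. The late steps without GGP1 stayed below the early steps in every library on this scale, which is not corrected for transcript length. No test was made of this value, since its genes had been chosen.

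**Figure D3:**
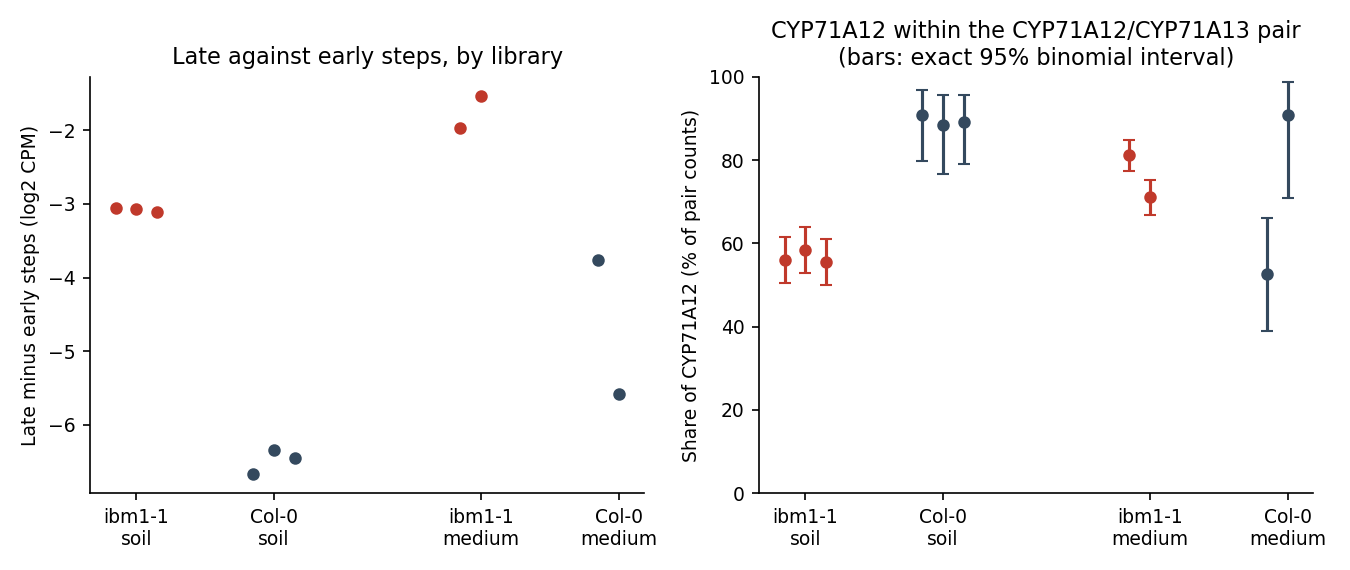
Left, mean log2 CPM of CYP71A12, CYP71A13 and PAD3 minus that of CYP79B2 and CYP79B3 in each library, where every ibm1-1 library lies above every Col-0 library of its experiment. Right, the share of CYP71A12 among the counts of CYP71A12 and CYP71A13 with exact 95% binomial intervals, which is 55.6% to 58.4% in ibm1-1 and 88.5% to 90.7% in Col-0 in soil and overlaps in medium.

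Levels were compared between the genes per length, as RPKM computed here from the CPM and the exon length. GGP1 was the highest of the 7 in every group, with 141.4 ± 10.06 RPKM in ibm1-1 and 160.9 ± 4.70 RPKM in Col-0 in soil (SD, n = 3 each), and 199.5 ± 9.67 RPKM in ibm1-1 and 102.8 ± 29.8 RPKM in Col-0 in medium (SD, n = 2 each). In soil, PAD3 stood in place 4 in ibm1-1 with 9.76 ± 0.652 RPKM and in place 5 in Col-0 with 0.939 ± 0.0915 RPKM. CYP79B2 and CYP79B3 overlapped in ibm1-1 in soil, with 34.7 ± 1.85 and 34.3 ± 1.91 RPKM, while in Col-0 CYP79B3 was the higher of the pair with 50.7 ± 0.717 RPKM, against 35.2 ± 1.05 RPKM of CYP79B2. In medium PAD3 reached 29.9 ± 9.79 RPKM in ibm1-1, where it overlapped with CYP79B2 at 37.4 ± 2.67 RPKM and stood above CYP79B3 at 19.6 ± 0.955 RPKM, while in Col-0 PAD3 had 4.97 ± 3.43 RPKM, below both CYP79B genes. At the low end, CYP71A13 was the last of the 7 in Col-0 in soil with 0.179 ± 0.0436 RPKM and NAC042 in the other groups. In Col-0 in medium, CYP71A12 overlapped with CYP71A13 and CYP71A13 with NAC042.

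The supply of tryptophan, the starting compound, was looked at through 11 genes of its synthesis. Numbers in parentheses after gene names are log2 fold changes of ibm1-1 over Col-0 here and for the lists that follow. In soil none was a DEG, and 4 of the 11 were higher and 2 lower at an adjusted p below 0.05, where 25.4% of all genes were higher and 25.9% lower. The median log2 fold change was 0.05. The largest values were those of TSB2 (0.70), a beta subunit of tryptophan synthase, PAT1 (0.39) and TSA1 (0.33). In medium again none was a DEG, but 8 of the 11 were higher at an adjusted p below 0.05 and none lower, where 11.5% of all genes were higher and 7.77% lower, with a median of 0.65. They included ASA1 (0.65) and ASB1 (0.99), the subunits of anthranilate synthase, which starts the branch, as well as PAT1 (1.00), IGPS (0.96), TSA1 (0.97), TSB1 (0.87), TSB2 (0.62) and PAI2 (0.57). PAT1, ASB1, IGPS and TSA1 lay close to the fold threshold and passed it, at 1.05 to 1.17, when Col-0 replicate 1 was left out, and at 1.05 to 1.12 when ibm1-1 replicate 1 was. The adjusted p of PAI2 was 0.326 and that of TSB2 0.0878 when ibm1-1 replicate 2 was left out, and they were 0.0897 and 0.175 when Col-0 replicate 2 was. The paralogs PAI1, PAI2 and PAI3 are closely alike, so their single values are uncertain. The effect was more negative in soil for 8 of the 11 genes and more positive for none, against 9.64% and 7.64% of all genes.

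Glutathione is the compound that the pathway joins to indole-3-acetonitrile. Of 9 genes of its synthesis, conjugation and breakdown, 8 were tested in each experiment. In soil 3 of them were higher DEGs, the glutathione transferase genes GSTF6 (1.83), GSTF7 (1.29) and GSTU4 (1.93), while GSH2, glutathione synthetase, was reduced (-0.48) and GSH1, which makes its precursor, had a log2 fold change of -0.01 (adjusted p = 0.911). GGP3, a peptidase related to GGP1, was reduced as well (-0.30, adjusted p = 3.19e-05, edgeR). In all, 4 of the 8 were higher and 2 lower at an adjusted p below 0.05. By that threshold 25.4% of all genes were higher and 25.9% lower in soil, and 5.87% were higher DEGs. In medium GSTF6 (3.63), GSTF7 (3.79) and GSTU4 (2.37) were higher DEGs, as were 5.53% of all genes. GSH1 (0.82), GSH2 (0.77) and GGP3 (0.45) were also higher at an adjusted p below 0.05, where 11.5% of all genes were. For GGP3 it was 0.084 without ibm1-1 replicate 2, 0.0781 without ibm1-1 replicate 1 and 0.0612 without Col-0 replicate 1. GSTF6 had 138 ± 3.20 CPM in ibm1-1 and 38.9 ± 0.790 CPM in Col-0 in soil, and 515.5 ± 76.7 CPM in ibm1-1 and 41.6 ± 16.3 CPM in Col-0 in medium. GSTF6 and GSTF7 are close paralogs, and how their reads were divided is uncertain. The median of the list was 0.19 in soil and 0.79 in medium. The effect was more negative in soil for 5 of the 8 and more positive for none, against 9.64% and 7.64% of all genes.

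**Figure D4:**
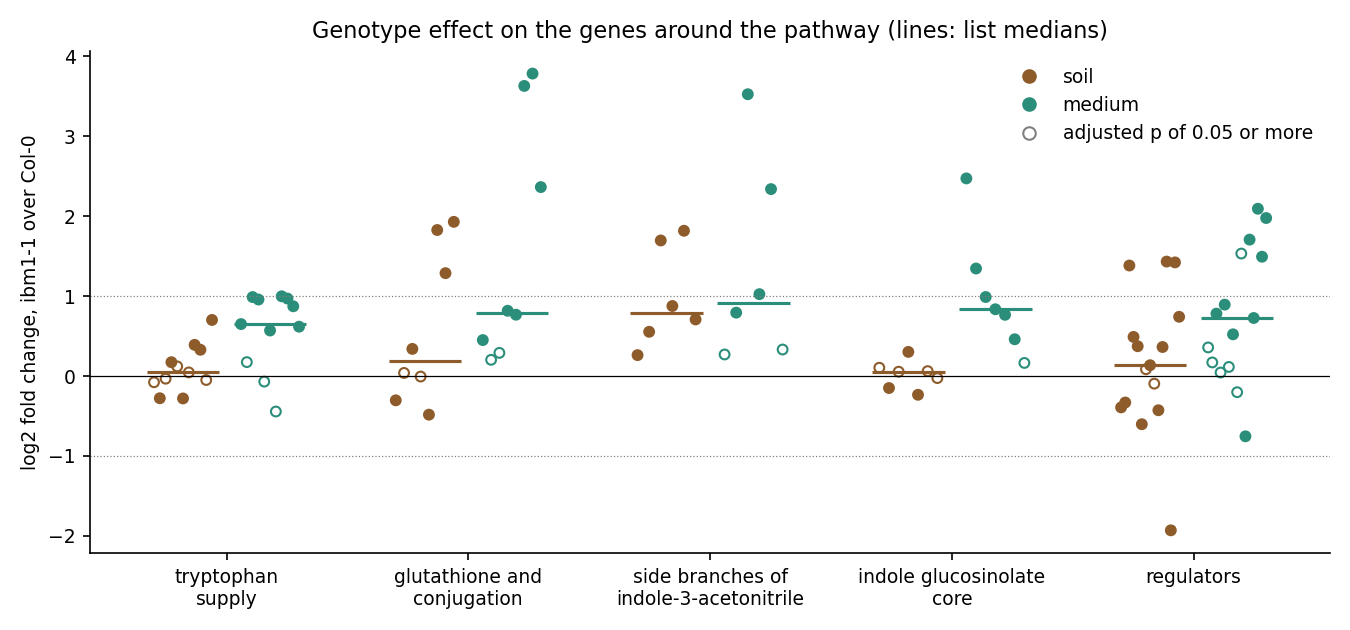
Log2 fold change of ibm1-1 over Col-0 for the tested genes of 5 lists around the pathway, in soil (brown) and in medium (green), with filled points for an adjusted p below 0.05, lines for list medians and dotted lines at a fold change of 2. The medians of tryptophan supply are 0.05 in soil and 0.65 in medium, and those of the indole glucosinolate core 0.05 in soil and 0.84 in medium.

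Other uses of the same intermediates were examined next. Indole-3-acetonitrile can also be taken by nitrilases and by CYP71B6, and FOX1 acts further along a branch from it, on indole cyanohydrin. Of the 7 genes listed for these side branches, 6 were tested in each experiment. In soil all 6 tested were higher at an adjusted p below 0.05, of which FOX1 (1.70) and NIT2 (1.82) were DEGs, where 25.4% of all genes were higher by that threshold and 5.87% were higher DEGs. In medium 4 of the 6 were higher by that threshold, of which FOX1 (3.53), NIT1 (1.02) and NIT2 (2.34) were DEGs, against 11.5% and 5.53% of all genes. FOX1 was 4.59 when Col-0 replicate 1 was left out and 2.88 when Col-0 replicate 2 was. NIT1 missed the fold threshold when ibm1-1 replicate 2 (0.95) or Col-0 replicate 2 (0.86) was left out. The nitrilase genes lie close in sequence and their single values are uncertain. The core of indole glucosinolate synthesis, which draws on the same aldoxime, had no DEG among 7 genes in soil. At an adjusted p below 0.05, 1 was higher and 2 lower, where 25.4% of all genes were higher and 25.9% lower. In medium 2 of the 7 were higher DEGs, CYP83B1 (1.35), which takes the aldoxime into this branch, and CYP81F2 (2.47), which modifies the indole ring, and 6 were higher at an adjusted p below 0.05. The effect was more negative in soil for 6 of these 7 genes and more positive for none, against 9.64% and 7.64% of all genes. Of the 2 P450 reductases that pass electrons to such enzymes, ATR2 was lower in soil (-0.63, adjusted p = 3.06e-14), and in medium ATR1 had 0.12 (adjusted p = 0.574) and ATR2 0.19 (adjusted p = 0.279, edgeR).

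Of 16 known regulators, 15 were tested in each experiment. In soil 3 were higher DEGs, WRKY33 (1.42), PAD4 (1.43) and ERF1 (1.38), and 1 was a lower DEG, WRKY18 (-1.93). Over all genes tested there, 5.87% were higher and 2.39% lower DEGs. At an adjusted p below 0.05 alone, 8 of the 15 were higher and 5 lower, MYB34 (-0.43) among them. That compares with 25.4% and 25.9% of all genes. ERF1 had 4 to 7 counts in the Col-0 libraries and passed the filter through ibm1-1, where it was higher, with 0.695 ± 0.176 CPM in ibm1-1 and 0.273 ± 0.108 CPM in Col-0. In medium 4 were higher DEGs, WRKY33 (1.49), MYB51 (1.71), WRKY18 (2.09) and WRKY40 (1.98), and none was lower. Over all genes tested in medium, 5.53% were higher and 1.53% lower DEGs. At an adjusted p below 0.05 alone, 8 of the 15 were higher and 1 lower, MYB34 (-0.75). That compares with 11.5% and 7.77% of all genes. WRKY33, which is known to bind promoters of camalexin genes, had 124.4, 123.2 and 126.1 CPM in ibm1-1 and 46.9, 48.6 and 44.1 CPM in Col-0 in soil. In medium it had 29.6 and 36.7 CPM in ibm1-1 and 11.4 and 12.1 CPM in Col-0. It was thus higher in ibm1-1 in both experiments, and its difference between them of -0.05 did not pass the test (adjusted p = 0.894). WRKY18, a relative known to act with WRKY40 on defence genes, moved in opposite directions, with 36.6 ± 2.63 CPM in ibm1-1 and 139.8 ± 4.94 CPM in Col-0 in soil, and 42.8 ± 3.94 CPM in ibm1-1 and 10.0 ± 0.737 CPM in Col-0 in medium. Of 3 transporter genes linked to export, 1 was higher and 2 lower in soil at an adjusted p below 0.05, against 25.4% and 25.9% of all genes. In medium 2 were higher and none lower, against 11.5% and 7.77%. ABCG34 had -0.34 in soil (adjusted p = 6.91e-07, edgeR) and 0.43 in medium (adjusted p = 0.0604, edgeR). ABCG40 was a higher DEG in soil (2.31) and in medium (3.12). In medium it was 5.29 when Col-0 replicate 1 was left out and 2.24 when Col-0 replicate 2 was, and with DESeq2 its adjusted p was 0.116. The exporter gene ABCG36 was reduced in soil (-0.36) and higher in medium (0.54, adjusted p = 0.0204, and 0.176 without ibm1-1 replicate 1).

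The genes most like PAD3 over the 10 libraries were found by the root mean square difference of log2 CPM, with each experiment centred on its Col-0 mean, among 19631 genes tested in both. The 5 nearest, with that difference in parentheses, were AT4G22960 (0.30), AT2G33175 (0.34), AT1G67000 (0.36), ARD3 (AT2G26400, 0.36) and AT1G61550 (0.37). Among the other 6 genes of the pathway, CYP71A13 stood at place 142 (0.87), NAC042 at 182 (0.94) and CYP71A12 at 272 (1.1) of 19630. CYP79B2 stood at 3663, GGP1 at 4690 and CYP79B3 at 16412.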

How the data were processed

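Whole seedlings of ibm1-1 and Col-0 were profiled by mRNA sequencing with a directional library kit. The deposited counts are unscaled read counts of each TAIR10 gene, made by the authors with HTSeq from reads that the paper's methods say were trimmed with SolexaQA and cutadapt and mapped with TopHat for soil, and trimmed with Trimmomatic and mapped with HISAT for medium. The submitters' processing notes name Trimmomatic 0.36, HISAT2 2.1.0 and HTSeq 0.9.1 for both, and the 2 accounts differ for soil. Each experiment was fitted with genotype as the only factor in edgeR 4.0.16 (R 4.3.3) with filterByExpr (minimum count of 10), TMM scaling and the quasi-likelihood test, and p-values were adjusted by the Benjamini-Hochberg method over all genes tested, 20082 in soil and 20871 in medium. The difference of the genotype effect was fitted with limma 3.58.1 (voom with quality weights) on all 10 libraries and 20192 genes. Log2 CPM used a pseudocount of 0.5 counts. Standard errors of fold changes follow from edgeR's test statistic. The steps were tested on simulated data, with large changes put only into genes of many counts. Changes in genes with few counts, such as NAC042, were not covered by it.

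The members and lists were chosen with earlier results of these data known. All 7 members, list genes that were DEGs in either experiment, genes of the lists whose counts are given, the 5 genes nearest to PAD3 and IBM1 were to be named. AT2G30766 and AT2G42990 were named for their overlap. The alternatives were DESeq2 1.42.0 and its size factors, library size only, no filter, a filter at a mean of 5 CPM, edgeR for the difference, a replicate block, the CYP71A pair summed, no fold-change threshold, a pseudocount of 2, GGP1 as a late step, and each library left out. Bisulfite samples were not analysed here.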

Additional observations from a re-analysis of the deposited data

Results flagged for a closer look

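The effect of the genotype differed between soil and medium, by limma's test of the difference itself, for 26 of the genes chosen around the pathway. Over all genes tested, 9.64% were more negative in soil and 7.64% more positive. Genes were chosen in part for being DEGs in these same data, so the count is a description only. It holds 4 of the 7 members, 8 of 11 genes of tryptophan supply, 5 of 8 genes tested around glutathione and 1 of 2 P450 reductases. From the remaining lists only part of the genes was examined for this count. Other genes of the lists, such as MKK9, CPK5, GSTF10 and ABCG34, also passed and are not in this count. Each value is the log2 fold change of ibm1-1 over Col-0 in soil minus that in medium. Among the members it was -0.91 for CYP79B2, -0.84 for CYP79B3, -2.26 for CYP71A12 and -1.15 for GGP1. In tryptophan supply it was -0.70 for ASA1, -0.44 for ASA2, -0.99 for ASB1, -0.61 for PAT1, -0.79 for PAI2, -0.76 for IGPS, -0.62 for TSA1 and -0.90 for TSB1. Around glutathione it was -0.79 for GSH1, -1.24 for GSH2, -1.84 for GSTF6, -2.48 for GSTF7 and -0.74 for GGP3. In the branches beside camalexin it was -0.51 for NIT2, -1.48 for CYP83B1 and -2.43 for CYP81F2, and it was -0.81 for the reductase gene ATR2 and -0.90 for the exporter gene ABCG36. Among the regulators it was -1.36 for MYB51, -4.00 for WRKY18 and -1.27 for WRKY40, while PAD4 alone of these 26 had a positive value, 0.72. The test was not passed for NIT2 in 4 of 14 alternatives, each a library left out (adjusted p up to 0.107), and for PAI2 without ibm1-1 medium replicate 2 (adjusted p = 0.0969). The effect of the growth condition cannot be told apart from that of age or of read processing, on which the sources differ.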

How the results depend on the processing

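The 4 higher members in soil and the 4 in medium kept their direction under every alternative that gave them a value. With a filter at a mean of 5 CPM, CYP71A12, CYP71A13 and NAC042 were not tested in soil and CYP71A13 and NAC042 not in medium, which left 1 and 2 higher members. At an adjusted p below 0.05 alone, 2 members were lower in soil. As single replicates were dropped, 4 members were higher DEGs in soil each time, and 3 to 5 in medium, with NAC042 lost without Col-0 replicate 2 and GGP1 gained without Col-0 replicate 1. Without ibm1-1 replicate 1 in medium NAC042 was not tested and GGP1 was gained. With DESeq2, 3 members were higher DEGs in medium. The number more negative in soil was 4 with each library left out, and the number more positive lay between 0 and 2, the 2 without Col-0 medium replicate 2. With GGP1 among the late steps the shift in soil was 2.58, and with each replicate left out it lay between 3.32 and 3.48 in soil and between 2.02 and 3.83 in medium.

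Values near 0 changed sign. In soil CYP79B2 had 0.10 by library size only and 0.0030 with a mean of 5 CPM, and lay between -0.046 and 0.03 as single replicates were dropped, above 0 without ibm1-1 replicate 1. By library size only ASA1 had 0.040, ASB1 0.085, TSB1 0.068, ATR1 0.080 and GSH1 0.11 (adjusted p = 0.032). GSH1 had 0.016 with a mean of 5 CPM and -0.030 to 0.041 with each replicate left out, and PAI3 -0.0091 to 0.14. In medium ATR1 had -0.057 to 0.32 with each replicate left out. For soil minus medium, leaving out each library gave -1.32 to 2.28 for CYP71A13, -0.15 to 1.38 for PAD3, -0.14 to 0.34 for TSB2, -0.33 to 0.028 for NIT1, -0.35 to 0.035 for ATR1, -0.21 to 0.10 for WRKY33 and -2.83 to 0.18 for ABCG40, with the ends of CYP71A13, PAD3, TSB2, NIT1 and ABCG40 set by the Col-0 medium replicates.

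The replicate numbers gave no sign of pairing in soil, where the deviations of same-numbered libraries correlated at -0.12, 0.04 and 0.08. In medium these correlations were 0.15, and -0.15 for libraries of different numbers. With 2 libraries per group such values mirror each other, so pairing in medium could not be judged. With the replicate block, 4 members were higher in soil and 4 in medium, PAD3 having 3.37 and 2.64. With it PAT1 passed the fold threshold in medium (1.01), and FOX1 differed between soil and medium (-1.79, adjusted p = 0.00222). The count of DEGs over all genes in medium was 1219 higher and 356 lower with it, and 1154 and 319 without. The filter at a mean of 5 CPM left 376 higher and 274 lower DEGs in soil and 518 and 139 in medium, against 1178 and 479 in soil and 1154 and 319 in medium. Few counts of CYP71A13 and NAC042 in Col-0, and 2 replicates in medium, limit these values.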
